A study of Homo sapiens with 9 samples.

Results

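Members of the DNAJ family were taken as all genes whose symbol begins with DNAJA, DNAJB or DNAJC, leaving out DNAJB9, DNAJB11, DNAJC3 and DNAJC10, which act inside the endoplasmic reticulum (ER). The arrays read 42 such genes of 18132 genes with a probe set of their own, and 35 of the 42 were bright enough to be tested. The rule goes by symbol, so a few proteins of the ER membrane stay in. RefSeq lists 41 protein-coding genes under the rule, and all but the read-through gene DNAJC25-GNG10 were among the 42, together with DNAJA1P5 and DNAJB3, which RefSeq lists as transcribed pseudogenes. The 7 members below the brightness filter, which lay at 4.74 log2, were DNAJA1P5, DNAJB3, DNAJB7, DNAJC5B, DNAJC5G, DNAJC22 and DNAJC28. DNAJC22, just outside it, had a mean of 4.54 over the 9 arrays, and DNAJB8 and DNAJB5, just inside it, had means of 4.79 and 4.80.

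J-domain proteins are the partners that make HSP70 chaperones work. The J-domain touches HSP70 and speeds up its hydrolysis of ATP, which closes HSP70 on the unfolded stretch that the J-domain protein has often brought along, and nucleotide exchange factors such as the BAG proteins then let it go. Class A members (DNAJA) keep the full bacterial DnaJ layout with a zinc-finger region, class B members (DNAJB) have the J-domain and a glycine-rich stretch, and class C members (DNAJC) share only the J-domain and are mostly fixed to 1 place or task, from the ribosome to synaptic vesicles. In heat-shocked or proteotoxic conditions the cytosolic members DNAJB1 and DNAJA1 are known targets of the heat shock factor HSF1.

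By the labels and protocols the cells were a form of HepG2, a human hepatoma line, made insulin resistant and called R-HepG2. After a night without serum, cells stayed for 4 h in plain DMEM (medium), in DMEM with insulin, or in DMEM with biomineralized insulin (BI), both preparations at 40 ug/ml of insulin. Each group had 3 arrays, and no source used here says whether they came from separate cultures, so the p-values rest on a spread that may be only technical. The tag for the line says R-HepG2 in medium but HepG2 in both treated groups, whereas the protocols name R-HepG2 for all, and no group received the mineral without insulin.

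Each probe set of these 3'-labelled one-colour arrays has a log2 expression value, and the array medians lay between 5.46 and 5.50. The labelled cell type was checked against 14 liver markers. Only APOA1, TTR, TF and AHSG passed the brightness filter, the highest at 5.87, while ALB (3.28 in medium) and AFP (3.00) were below it. Background probes had a median of 2.99 in medium. Most liver markers thus did not bear out the labelled cell type. By comparison 4 of 7 fibroblast markers (highest 8.10), 5 of 8 lung epithelium markers (highest 6.46), 4 of 5 endothelium markers (highest 5.53), 2 of 5 squamous markers (highest 5.11) and 2 of 5 leukocyte markers (highest 6.64) passed. The mean level of the liver list was 4.06 to 4.15 on the medium arrays and 4.08 to 4.14 on the BI arrays, that of the lung list 4.73 to 4.89 and 4.92 to 4.99, and that of the fibroblast list 5.41 to 5.49 and 5.54 to 5.56. Those of the endothelium, squamous and leukocyte lists overlapped between medium and BI. The part of any of these cell types in the results was not tested. Poly-A spike-in RNA read 7.36 ± 0.08 (SD, n = 3) in medium, 7.39 ± 0.06 in insulin and 7.80 ± 0.17 in BI. Setting the arrays level on these spike-ins shifted all genes by -0.44 in BI against medium, so each change below is relative to the other genes on the arrays.

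Whether biomineralized insulin changed the J-domain genes was asked first against plain medium. Changed means an adjusted p under 0.05 in limma, with Benjamini-Hochberg adjustment over all 12239 tested genes. Of the 35 tested members, 23 changed, 11 of them higher and 12 lower. Of all tested genes 50.9% changed, 25.7% higher and 25.2% lower, so many genes outside the family moved too. The changes were small, with a median of -0.03 log2 over the members and 0.02 over all genes. Past 1.5-fold were 3 members, DNAJA1 upward and DNAJC18 and DNAJC17 downward, and 7.11% of all genes (2.76% upward and 4.35% downward). The 3 BI arrays lay wholly above the 3 medium arrays for 12 members and wholly below for 13, and 56.6% of all genes were separated one way or the other.

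**Figure D1:**
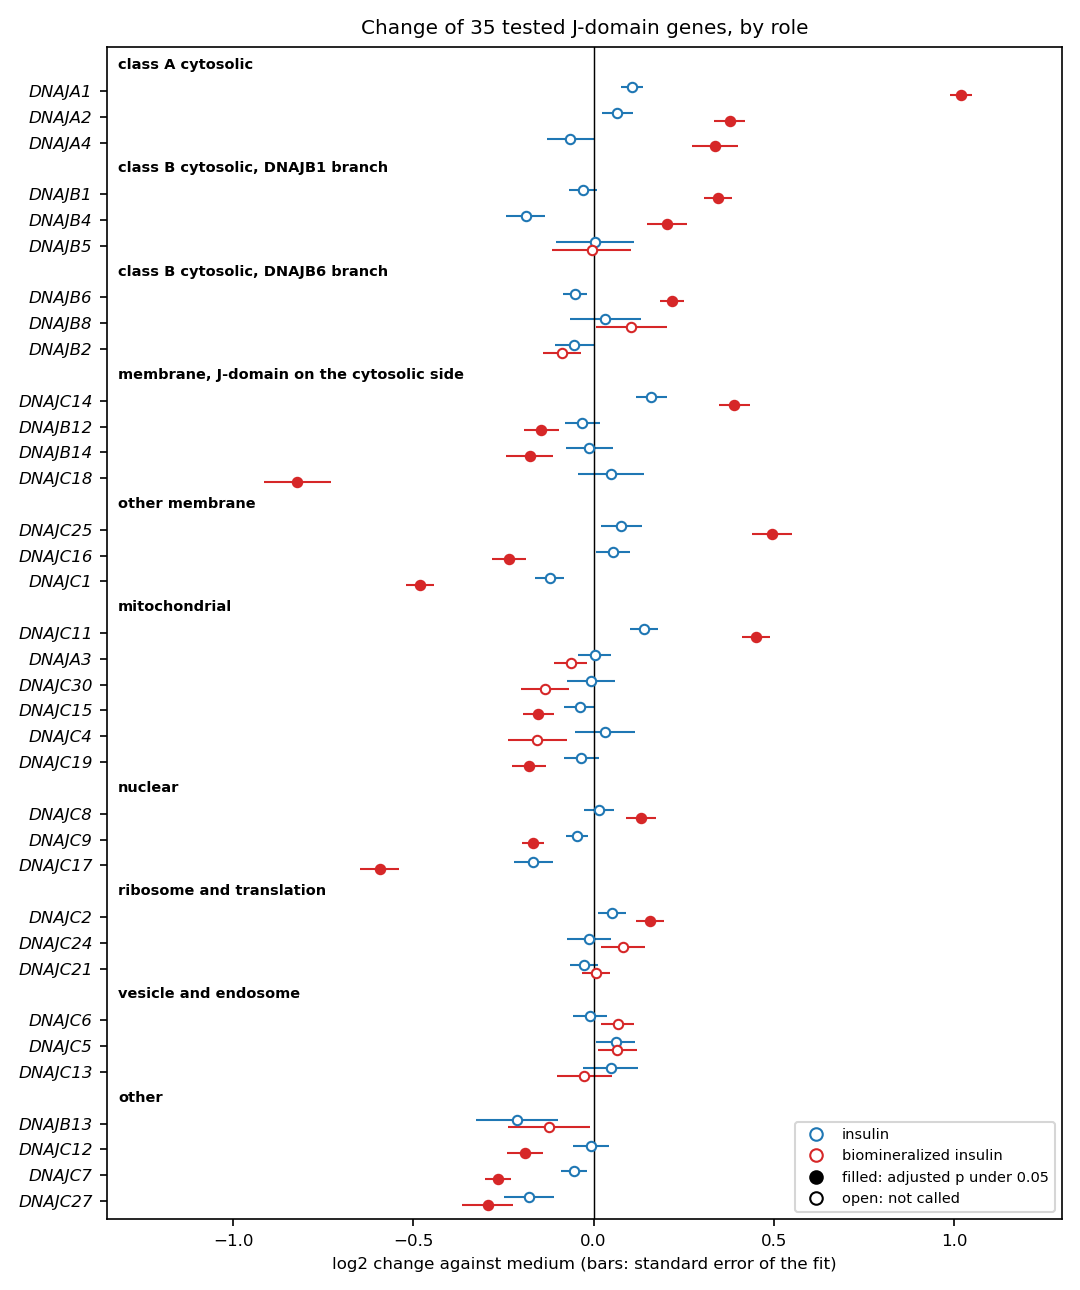
Change of each of the 35 tested J-domain genes against medium (log2, horizontal axis) for insulin (blue) and biomineralized insulin (red), grouped by role, with standard errors of the fit and filled points where the adjusted p is under 0.05. All blue points are open and lie between -0.21 and 0.16, while the red points run from -0.82 (DNAJC18) to 1.02 (DNAJA1) relative to the other genes on the arrays; after centring on the spike-ins 3 of the red values stay above 0.

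By role, counts of a few genes each are to be read against the 50.9% of all tested genes that changed. Of the 9 tested cytosolic class A and class B members, the general helpers of cytosolic HSP70, 6 were higher in BI than in medium and none was lower, with a median change of 0.22. Of the other 26 tested members, 5 were higher and 12 lower, with a median of -0.14. After centring on the spike-ins, 1 member (DNAJA1) was higher and 27 were lower. Of all 12239 tested genes 197 were then higher and 9347 lower, and the centring shifts every gene of an array by the same amount. The difference between the roles was not tested, and they were formed with the values known.

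DNAJA1 is a cytosolic class A protein that hands clients to HSP70. Its log2 values were 11.31, 11.30 and 11.31 in medium, 11.37, 11.40 and 11.47 in insulin, and 12.30, 12.35 and 12.34 in BI. All BI arrays stood about 1 log2 unit above the other 6, and within a group the values were close. BI was 2.03-fold higher than medium, a change of 1.02 ± 0.03 (SE; adjusted p = 1.49e-13 in limma). The change was 0.58 after centring on the spike-ins (adjusted p = 5.64e-07, the highest among the settings the gene could be tested under). All 5 probe sets of the gene were higher, by 1.02 to 1.53. Each of the 5 is of a kind (suffix _s_at or _x_at) that may read near-identical sequences, so DNAJA1 could not be tested without such probe sets and signal from DNAJA1 and from its pseudogenes cannot be told apart.

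DNAJA2 and DNAJA4 are the other cytosolic class A proteins, DNAJA2 being an efficient partner of HSP70 in refolding. DNAJA2 read 9.59, 9.57 and 9.68 in medium, 9.67, 9.64 and 9.73 in insulin, and 9.95, 10.04 and 9.97 in BI. DNAJA4 read 6.88, 6.89 and 6.73 in medium, 6.76, 6.80 and 6.75 in insulin, and 7.09, 7.18 and 7.25 in BI. For both genes the lowest BI array was above the highest of the other 6. The changes against medium were 0.38 ± 0.04 for DNAJA2 (adjusted p = 1.35e-06 in limma) and 0.34 ± 0.06 for DNAJA4 (adjusted p = 0.000336), and -0.06 and -0.10 with spike-in centring. All 3 cytosolic class A genes thus rose relative to the other genes on the arrays, and DNAJA1 alone also did so relative to the spike-ins.

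DNAJB1, the classical human HSP40 that works with HSP70 in dissolving aggregates, read 10.08, 10.12 and 10.03 in medium, 10.02, 10.07 and 10.07 in insulin, and 10.37, 10.45 and 10.46 in BI. Medium and insulin arrays overlapped and the BI arrays lay above both. The change against medium was 0.35 ± 0.04 (adjusted p = 1.26e-06), and its 3 probe sets gave 0.27 to 0.48. DNAJB4, its close relative, read 9.38, 9.40 and 9.25 in medium, 9.20, 9.06 and 9.22 in insulin, and 9.46, 9.61 and 9.57 in BI. Here the insulin arrays were the lowest group and the BI arrays the highest, with no overlap between any of the groups. BI was 0.20 ± 0.06 above medium (adjusted p = 0.00555), and the other probe sets of DNAJB4 gave 0.35 and 0.58. DNAJB5, the third gene of this branch, was dim (4.81 in medium, 4.80 in BI) and its difference was -0.01 ± 0.11.

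DNAJB6 keeps polyglutamine and amyloid proteins from aggregating. It read 10.99, 11.02 and 11.02 in medium, 10.91, 11.01 and 10.97 in insulin, and 11.20, 11.23 and 11.26 in BI. The BI arrays were the highest 3, and the change against medium was 0.22 ± 0.03 (adjusted p = 3.04e-05). Its probe sets above the filter ranged from 0.22 to 0.55, the brightest one giving the smallest difference. DNAJB2, a neuronal protein of the same branch that binds ubiquitinated clients, differed by -0.09 ± 0.05 (adjusted p = 0.182), and DNAJB8, a testis gene, by 0.10 ± 0.10. Relative to the spike-ins DNAJB1, DNAJB4 and DNAJB6 were at -0.10, -0.24 and -0.22, so their direction holds only in comparison with the other genes on the arrays.

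**Figure D2:**
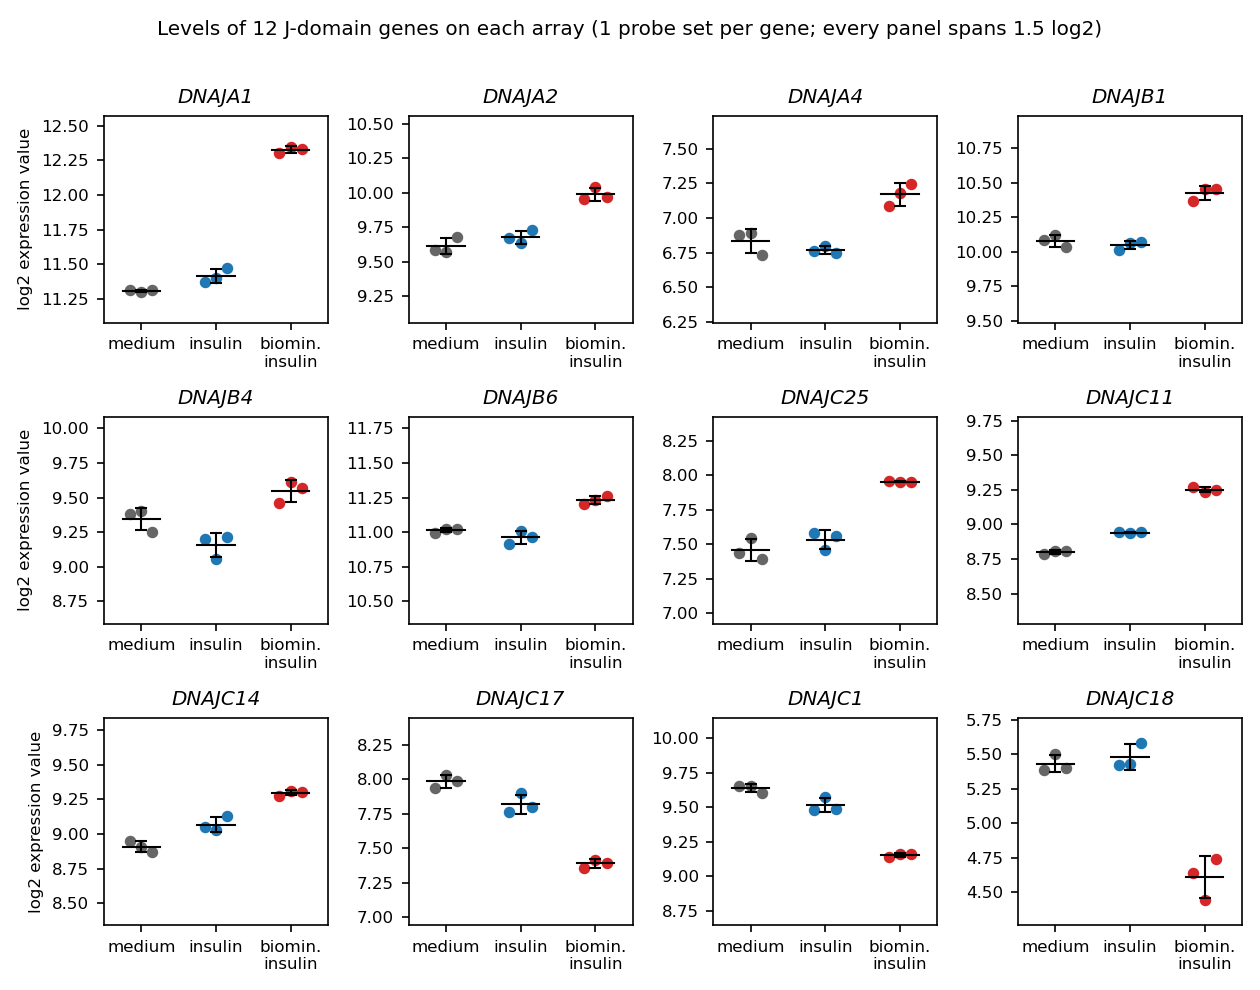
Log2 expression values of 12 J-domain genes on each of the 9 arrays (points), with the mean and SD of each group of 3 (bars). Every panel spans 1.5 log2 units, the level axes differ between genes, and the BI arrays stand apart from the other 6 in each panel, upward for the 9 genes from DNAJA1 to DNAJC14 relative to the other genes on the arrays (with spike-in centring DNAJA1 alone of the 9 is called higher, and all but DNAJA1, DNAJC25 and DNAJC11 turn negative) and downward for DNAJC17, DNAJC1 and DNAJC18.

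Because HSF1 binds inverted repeats of GAA, the promoters of the members were searched for them. RefSeq windows from 250 bases before to 50 bases after a gene's start (GRCh38.p14) matched 33 of the 35 tested members. A repeat of 2 units, GAANNTTC or TTCNNGAA, which reads the same on both strands, was found in 7 of the 33 members (21.2%). It was found in 16.2% of all 27305 RefSeq genes with a window, tested here or not. A repeat of 3 units, which is a 2-unit repeat followed by any 2 bases and 1 more unit (GAA after GAANNTTC, TTC after TTCNNGAA), was found in 2 of the 33 members (6.06%), DNAJA1 and DNAJB6, and in 0.608% of all genes. The 7 with a 2-unit repeat were DNAJA1, DNAJA4, DNAJB1, DNAJB4, DNAJB6, DNAJC6 and DNAJC15. In BI against medium 5 of the 7 were higher, DNAJC15 was lower and DNAJC6 did not pass the test, with a median change of 0.22. Of the 26 members without a match 6 were higher, 10 lower and 10 not called, with a median of -0.11. Of all tested genes 25.7% were higher and 25.2% lower. Calls among genes outside the family that hold the repeat were not counted. The pattern was noticed with the values in view and has no test, and a match is not a measured binding site. The CCAAT box (CCAAT or ATTGG), another common promoter element, was found in 10 of the 33 members (30.3%) and in 39.7% of the 27305 genes.

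The 5 cytosolic genes that rose and hold such a repeat are printed to show where it lies. Each is given as 250 bases before the start and 20 after, on the gene's own strand, from RefSeq GRCh38.p14, with the 2-unit repeats in capitals. For a gene with several start windows, the window with the most matches was chosen. DNAJA4, DNAJB1 and DNAJB4 also have start windows without a match. A further window of DNAJB1 holds GAAGCTTC 1 base after its start. The windows are chr9:33025023-33025292 (DNAJA1, plus strand), chr15:78264312-78264581 (DNAJA4, plus), chr19:14518378-14518647 (DNAJB1, minus), chr1:78004689-78004958 (DNAJB4, plus) and chr7:157336754-157337023 (DNAJB6, plus).
DNAJA1: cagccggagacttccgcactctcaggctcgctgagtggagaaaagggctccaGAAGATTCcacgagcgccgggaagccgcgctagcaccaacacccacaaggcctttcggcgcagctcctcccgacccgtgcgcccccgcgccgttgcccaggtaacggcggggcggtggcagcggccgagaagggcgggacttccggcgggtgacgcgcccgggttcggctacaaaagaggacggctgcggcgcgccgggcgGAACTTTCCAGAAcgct
DNAJA4: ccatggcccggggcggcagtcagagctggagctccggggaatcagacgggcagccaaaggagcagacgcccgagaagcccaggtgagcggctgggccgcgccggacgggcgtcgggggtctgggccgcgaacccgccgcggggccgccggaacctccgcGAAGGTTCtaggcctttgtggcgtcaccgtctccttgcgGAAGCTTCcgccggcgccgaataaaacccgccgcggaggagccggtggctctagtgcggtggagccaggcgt
DNAJB1: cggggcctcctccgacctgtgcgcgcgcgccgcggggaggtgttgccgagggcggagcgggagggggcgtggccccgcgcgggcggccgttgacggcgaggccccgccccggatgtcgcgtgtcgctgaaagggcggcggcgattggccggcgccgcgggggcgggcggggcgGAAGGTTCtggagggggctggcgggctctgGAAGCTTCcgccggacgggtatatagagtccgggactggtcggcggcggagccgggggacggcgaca
DNAJB4: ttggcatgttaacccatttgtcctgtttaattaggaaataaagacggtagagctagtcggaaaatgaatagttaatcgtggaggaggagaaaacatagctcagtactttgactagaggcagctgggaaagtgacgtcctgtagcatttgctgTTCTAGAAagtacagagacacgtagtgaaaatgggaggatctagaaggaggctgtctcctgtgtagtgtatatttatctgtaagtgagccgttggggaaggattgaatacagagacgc
DNAJB6: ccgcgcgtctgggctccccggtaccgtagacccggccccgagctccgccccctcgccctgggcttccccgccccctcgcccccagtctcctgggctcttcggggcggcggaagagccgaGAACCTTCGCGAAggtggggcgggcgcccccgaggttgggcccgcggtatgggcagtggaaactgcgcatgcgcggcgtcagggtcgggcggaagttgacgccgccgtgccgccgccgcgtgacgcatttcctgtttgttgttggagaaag
The 3-unit repeat of DNAJA1, GAACTTTCCAGAA, begins 3 bases after the start, and that of DNAJB6, GAACCTTCGCGAA, begins 131 bases before it. In its printed window DNAJA4 has single repeats 91 and 52 bases before the start. DNAJB1 has them 77 and 47 bases before that of its printed window, the nearer repeat reading GAAGCTTC in both genes. DNAJB4 has 1 repeat, TTCTAGAA, 98 bases before the start of its printed window.

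A group of ER and other membrane proteins keep the J-domain on the cytosolic side, where they serve degradation and export of membrane proteins. DNAJC18 read 5.39, 5.50 and 5.40 in medium, 5.42, 5.43 and 5.58 in insulin, and 4.64, 4.44 and 4.74 in BI. The BI arrays lay far below the other 6, and their mean of 4.61 was under the brightness filter. With the BI mean set at the filter level, BI was 1.61-fold lower than medium. The fitted change was -0.82 ± 0.09 (adjusted p = 1.40e-06 in limma), and it ran from -1.26 to -0.41 over the alternatives. The second probe set of DNAJC18 above the filter differed by 0.00, so the fall rests on 1 probe set.

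DNAJB12 and DNAJB14 are a pair of ER proteins that work with HSC70 on misfolded membrane proteins. DNAJB12 read 8.91, 8.97 and 8.84 in medium, 8.89, 8.89 and 8.84 in insulin, and 8.75, 8.83 and 8.71 in BI, a change of -0.14 ± 0.05 (adjusted p = 0.0187). The highest BI array lay just under the lowest medium array. DNAJB14 read 8.33, 8.25 and 8.17 in medium, 8.25, 8.11 and 8.35 in insulin, and 8.04, 8.17 and 8.01 in BI, a change of -0.18 ± 0.07 (adjusted p = 0.0326). The highest BI array was level with the lowest medium array to 2 decimals. Of 6 probe sets of DNAJB12 5 were lower and 1 was at 0.02, and the second bright probe set of DNAJB14 was at 0.02. The call of DNAJB12 was lost without medium replicate 2 (adjusted p = 0.0992), BI replicate 1 (0.0535) or BI replicate 3 (0.0869), and across the alternatives its adjusted p ran from 2.31e-06 to 0.114. That of DNAJB14 was lost without medium replicate 1 (0.130), medium replicate 2 (0.0752), BI replicate 1 (0.102) or BI replicate 3 (0.124), and across the alternatives it ran from 1.24e-06 to 0.915.

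DNAJC14, which helps receptors leave the ER, went the other way. It read 8.95, 8.91 and 8.87 in medium, 9.05, 9.03 and 9.13 in insulin, and 9.28, 9.31 and 9.31 in BI. The 3 groups did not overlap, with insulin between medium and BI. BI was 0.39 ± 0.04 above medium (adjusted p = 1.08e-06), while a second, dimmer probe set differed by 0.00.

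Among the remaining membrane members DNAJC25 was higher and DNAJC1 and DNAJC16 were lower. DNAJC25, a multi-pass membrane protein, read 7.43, 7.54 and 7.39 in medium, 7.58, 7.46 and 7.56 in insulin, and 7.95 on each BI array. The change was 0.50 ± 0.06 (adjusted p = 1.50e-06), and the second probe set gave 0.53. DNAJC1, an ER membrane protein that binds BiP through its lumenal J-domain, read 9.65, 9.66 and 9.61 in medium, 9.48, 9.58 and 9.49 in insulin, and 9.14, 9.17 and 9.16 in BI. The groups fell in the order medium, insulin, BI with no overlap, and the change of BI was -0.48 ± 0.04 (adjusted p = 3.96e-08), with -0.61 in the second probe set. DNAJC16 read 8.42, 8.43 and 8.45 in medium, 8.54, 8.43 and 8.49 in insulin, and 8.25, 8.19 and 8.15 in BI. Its BI arrays lay below the other 6, the change being -0.24 ± 0.05 (adjusted p = 0.000548). Of its 3 bright probe sets 2 were lower and the dimmest gave 0.11.

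**Figure D3:**
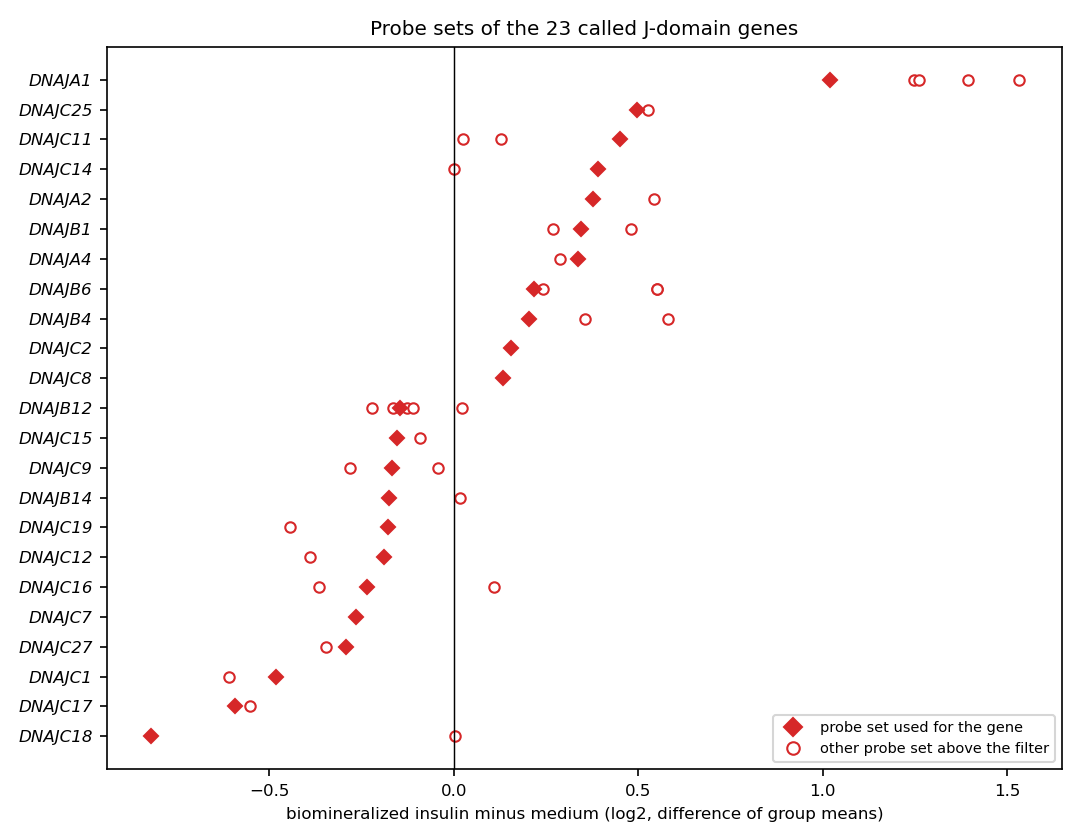
Difference of BI and medium means (log2) for every probe set above the brightness filter of the 23 changed J-domain genes, with the probe set used for the gene as a filled diamond and the others as open circles. Of 20 genes with more than 1 such probe set, 16 have all of them on the same side of 0; DNAJB12, DNAJB14, DNAJC16 and DNAJC18 do not.

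Of the 6 mitochondrial members 1 was higher and 2 were lower, a share of changed genes near that of all tested genes. DNAJC11, a protein of the outer membrane that helps shape the cristae, read 8.79, 8.81 and 8.81 in medium, 8.94 on each insulin array, and 9.27, 9.24 and 9.25 in BI. The 3 groups stood clear of each other, and the change of BI was 0.45 ± 0.04 (adjusted p = 6.13e-08). Its dimmer probe sets gave 0.13 and 0.02. DNAJC15 and DNAJC19, J-proteins of the motor that pulls proteins through the inner membrane, were lower by -0.15 ± 0.04 (adjusted p = 0.00644) and -0.18 ± 0.05 (adjusted p = 0.00542). DNAJA3, the matrix partner of the mitochondrial HSP70 HSPA9, differed by -0.06 ± 0.05, DNAJC30 by -0.13 ± 0.07 and DNAJC4 by -0.16 ± 0.08, and none of these 3 passed the test.

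The nuclear members are 3 genes, of which 1 was higher and 2 lower. DNAJC17, a protein of the splicing machinery, read 7.93, 8.03 and 7.99 in medium, 7.76, 7.90 and 7.80 in insulin, and 7.36, 7.42 and 7.40 in BI. The order was again medium, insulin, BI without overlap. BI was 1.51-fold lower than medium, a change of -0.59 ± 0.05 (adjusted p = 1.19e-07), and the second probe set gave -0.55. DNAJC9, a histone chaperone that is also a J-protein, was lower by -0.17 ± 0.03 (adjusted p = 0.000265), and DNAJC8, a spliceosome-associated protein, was higher by 0.13 ± 0.04 (adjusted p = 0.0129). The call of DNAJC8 was lost without medium replicate 2 (adjusted p = 0.0653) or BI replicate 3 (0.0611), it could not be tested without cross-hybridizing probe sets, and across the other alternatives its adjusted p ran from 0.00342 to 0.0653.

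At the ribosome, DNAJC2, which with HSPA14 receives new chains as they leave the tunnel, was higher by 0.16 ± 0.04 (adjusted p = 0.00274). DNAJC21, which serves maturation of the large subunit, differed by 0.01 ± 0.04, and DNAJC24, which takes part in making the diphthamide of elongation factor eEF2, by 0.08 ± 0.06. None of the 3 tested vesicle members passed: DNAJC5, the cysteine string protein, differed by 0.07 ± 0.05, DNAJC6 (auxilin), which uncoats clathrin vesicles with HSC70, by 0.07 ± 0.05, and DNAJC13 of endosomes by -0.03 ± 0.08. The 95% intervals of these 5 differences lay between -0.19 (DNAJC13) and 0.21 (DNAJC24).

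Of the members outside these roles 3 of 4 were lower. DNAJC7, an adaptor with TPR repeats that binds both HSP70 and HSP90, was lower by -0.26 ± 0.04 (adjusted p = 1.23e-05). DNAJC27, a Rab-like GTPase with a J-domain, was lower by -0.29 ± 0.07 (adjusted p = 0.00233), and DNAJC12, the helper of the aromatic amino acid hydroxylases, by -0.19 ± 0.05 (adjusted p = 0.00468). DNAJB13, a protein of cilia and sperm tails, differed by -0.12 ± 0.11.

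Insulin in solution, at the same dose and time, was compared with medium. Of the 35 tested members none changed, against 2.45% of all tested genes (1.25% higher and 1.20% lower). By limma 7 of the 35 members had an unadjusted p under 0.05, as had 1928 of all 12239 genes, and weighting the arrays by their quality gave 6 calls among the members and 605 among all genes. The changes ran from -0.21 (DNAJB13) to 0.16 (DNAJC14), and the smallest adjusted p was 0.0613, for DNAJC14. The 95% interval of every member lay within 0.5 log2 of 0 and that of 32 members within 0.3. For 6 of the 35 members the insulin and medium arrays did not overlap, a share near the 18.3% of all genes. Insulin was the higher group for DNAJA1, DNAJC11 and DNAJC14 and the lower one for DNAJB4, DNAJC1 and DNAJC17.

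In these 6 genes the BI arrays were also clear of both other groups, as the values above show. Of all genes 56.6% had BI arrays clear of medium and 52.7% had them clear of insulin. The share with all 3 groups apart was not computed. In DNAJA1 insulin was 0.11 ± 0.03 above medium (adjusted p = 0.0840), in DNAJC11 0.14 ± 0.04 (0.0708) and in DNAJC14 0.16 ± 0.04 (0.0613). In DNAJC1 it was at -0.12 ± 0.04 (0.126), in DNAJC17 at -0.17 ± 0.05 (0.124) and in DNAJB4 at -0.19 ± 0.06 (0.0851). The comparisons of insulin and of BI with medium share the medium arrays. All 6 genes were called with array weights. DNAJC14 and DNAJC11 were also called after quantile normalization again, DNAJA1 with its probe set of largest variance, and DNAJC14 with the dimmest 60% left out or without insulin replicate 2 (adjusted p = 0.0458). Across the alternatives the adjusted p of DNAJC14 ran from 0.0236 to 1.00.

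The BI preparation was last compared with soluble insulin, which holds the dose of insulin equal. Of the 35 members 21 changed, 11 higher and 10 lower, against 44.4% of all tested genes (21.1% higher and 23.3% lower). The median change was -0.01 over the members and 0.02 over all genes. All 21 had changed in the same direction against medium, and DNAJB12 and DNAJC27 had been lower against medium only, but the BI arrays are shared. Past 1.5-fold were DNAJA1 and DNAJC18, against 5.20% of all genes (1.60% upward and 3.60% downward). The BI and insulin arrays did not overlap for 22 members, against 52.7% of all genes.

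DNAJA1 was 1.89-fold higher in BI than in insulin (0.92 ± 0.03, adjusted p = 8.22e-13 in limma). The cytosolic class A and B genes that were higher against medium were higher here as well, DNAJA4 by 0.40 ± 0.06, DNAJB4 by 0.39 ± 0.06, DNAJB1 by 0.38 ± 0.04, DNAJA2 by 0.31 ± 0.04 and DNAJB6 by 0.27 ± 0.03, each with an adjusted p of at most 8.06e-05. With spike-in centring these 5 lay between -0.14 and -0.01. The difference of DNAJB4 was larger than against medium, its insulin arrays being the lowest. DNAJC25 (0.42 ± 0.06), DNAJC11 (0.31 ± 0.04) and DNAJC14 (0.23 ± 0.04) were also higher, by less than against medium. The second probe set of DNAJC14 differed by -0.04 here, and its call was lost with the mean of its probe sets (adjusted p = 0.175, from 5.65e-05 to 0.175 over the settings).

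Downward, DNAJC18 was 1.67-fold lower in BI than in insulin with the BI mean set at the filter level. The fitted change was -0.87 ± 0.09, again by 1 probe set. DNAJC17 (-0.43 ± 0.05), DNAJC1 (-0.36 ± 0.04), DNAJC16 (-0.29 ± 0.05) and DNAJC7 (-0.21 ± 0.04) followed, with adjusted p-values of at most 0.000158. The remaining changes were small: DNAJC12, DNAJB14, DNAJC19, DNAJC9 and DNAJC15 between -0.18 and -0.11, and DNAJC8 and DNAJC2 at 0.12 and 0.10. Several of them were lost without single arrays and under other settings. DNAJC19 was lost without insulin replicate 3 (adjusted p = 0.125) or BI replicate 2 (0.0770), it could not be tested without cross-hybridizing probe sets, and across the other alternatives its adjusted p ran from 6.61e-06 to 0.125. DNAJB14 (adjusted p = 0.0498 with all arrays), DNAJC15 (0.0381), DNAJC2 (0.0360) and DNAJC8 (0.0277) were each lost without BI replicate 1 and without BI replicate 3. DNAJB14 and DNAJC2 were also lost without insulin replicate 1 or 3, DNAJC8 without insulin replicate 2 or 3, DNAJC15 without insulin replicate 1 or 2 or BI replicate 2, and DNAJB14 without medium replicate 2. DNAJB14, DNAJC15, DNAJC2 and DNAJC8 were also lost without the intensity trend. DNAJB14 and DNAJC2 were lost with the replicate block, DNAJC2 and DNAJC8 with median centring, and DNAJB14 and DNAJC15 after quantile normalization again. Leaving out single arrays or changing other settings raised their adjusted p to at most 0.513, 0.868, 0.134 and 0.112 for DNAJB14, DNAJC15, DNAJC2 and DNAJC8.

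The partners of the J-domain proteins were read in the same fit, from lists chosen with earlier results of these data known. Counts of these short lists are to be read against all tested genes, of which 25.7% were higher in BI than in medium and 25.2% lower. Of 12 tested HSP70 and HSP110 genes 6 were higher in BI than in medium and 4 lower. HSPA8, the constitutive cytosolic HSC70, read 11.78 ± 0.08 (SD, n = 3) in medium and 13.65 ± 0.03 in BI, a change of 1.86 ± 0.04 (SE; adjusted p = 5.39e-16). HSPA1B, an inducible HSP70 whose copy HSPA1A cannot be told apart from it, went from 7.86 ± 0.08 to 10.70 ± 0.07, a change of 2.84 ± 0.06. Both changes were larger than that of any J-domain gene. HSPA9 of mitochondria (-0.38) and HSPA13 (-0.64) were lower, and BiP (HSPA5), the partner of the ER J-proteins, differed by 0.00. With soluble insulin against medium HSPA9 was the 1 called gene of the 12 (-0.19 ± 0.03, adjusted p = 0.00835 in limma). In BI against insulin it was at -0.19.

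Among 12 nucleotide exchange factors and adaptors 4 were higher and 4 lower. Of the BAG genes, BAG1 (0.76) and BAG3 (0.50), which release clients from cytosolic HSP70, and BAG6 (0.19) were higher. BAG4 (-0.40) and BAG5 (-0.12) were lower, and BAG2 (0.01) did not pass the test. Of the mitochondrial exchange factors GRPEL1 was higher (0.36) and GRPEL2 lower (-0.77), and SIL1 was lower as well (-0.34). Of 8 tested HSP90 genes, co-chaperones and heat shock factors, 7 were higher and none lower, with a median of 0.36, HSP90AB1 (0.53) and HSP90AA1 (0.50) leading. The gene that did not pass was HSF1 (0.12 ± 0.05, adjusted p = 0.0698 in limma), and HSF2 was not tested. The 4 excluded ER J-domain genes had 1 higher (DNAJC10, 0.19), 1 lower (DNAJB11, -0.19) and 2 not called. Of 3 tested J-domain genes with other symbols, SEC63 (-0.41) and HSCB (-0.39) were lower and GAK did not pass. All of these are relative to the other genes on the arrays, and the lists were not tested against each other.

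**Figure D4:**
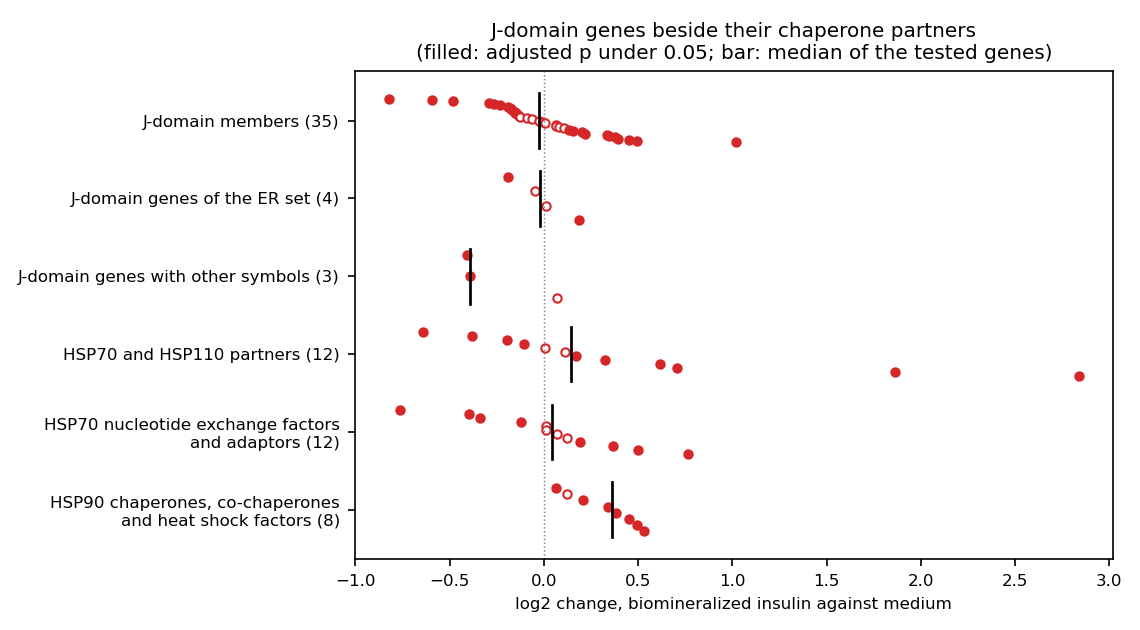
Change in BI against medium (log2) of the 35 J-domain members and of the genes of 5 partner lists, 1 point per tested gene, filled where the adjusted p is under 0.05, with a bar at the median. The J-domain members lie on both sides of 0 around a median of -0.03, HSPA1B and HSPA8 stand apart at 2.84 and 1.86, and the HSP90 list has a median of 0.36, all relative to the other genes on the arrays, which shift by -0.44 with spike-in centring.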

How the data were processed

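Total RNA of 9 cell samples was labelled with a 3' in vitro transcription kit and hybridised to one-colour arrays, per the labels' protocols. The authors deposited log2 expression values per probe set; their summarisation and normalization are not given in the sources used here. With 3 arrays a group, array number limits precision. The platform annotation pairs 44988 of 49395 probe sets with 1 symbol, 1832 with several and 2473 with none, and 44961 symbols were updated by Entrez identifier to RefSeq (GRCh38.p14). Probe sets in the dimmest 40% of all probe sets were left out, and each gene took its brightest remaining one. All 9 arrays entered 1 limma fit (limma 3.58.1, R 4.3.3, intensity trend, 6 residual degrees of freedom) with 3 contrasts, tested on simulated data. Figures used matplotlib 3.10.9.

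The members and gene lists were chosen with earlier results of these data known. Values on every array are given for changed members past 0.5 log2 and for those whose probe sets disagree in sign; those of other members were added after values were seen. Alternatives covered the replicate block, arrays, normalization, spike-in scaling, offset, filters, probe sets, variance model, weights and thresholds. Same-numbered arrays correlated between -0.23 and 0.17 in their deviations, so the numbers pair nothing here.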

Additional observations from a re-analysis of the deposited data

How the results depend on the processing

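With all 9 arrays 0, 23 and 21 members were called in insulin against medium, BI against medium and BI against insulin. Among all 12239 tested genes the calls were 300, 6230 and 5433, and they moved with the settings too. Leaving out single arrays gave 0 to 1, 20 to 24 and 17 to 21 members. Among all genes it gave 57 to 425, 5504 to 6291 and 4855 to 5556 calls. Insulin against medium gave 2 member calls after quantile normalization again (413 among all genes) and 1 with the dimmest 60% left out (356). It gave 1 with the probe set of largest variance (177 among all genes) and 6 with array weights (605). Requiring 1.5-fold left 3 and 2 member calls in the BI comparisons, and 870 and 636 calls among all genes. The fit with the replicate number as a block gave 0, 23 and 19 member calls, and 226, 6081 and 5302 among all genes. The labels do not say that equal numbers mark paired arrays. Under all alternatives other than spike-in centring and stricter thresholds 19 of the 23 calls against medium and 15 of the 21 against insulin were kept wherever the gene was tested. Without cross-hybridizing probe sets 30 members are tested, and DNAJA1, DNAJC8 and DNAJC19 are not among them; DNAJC18 is not tested with the dimmest 60% left out. The others are DNAJB12, DNAJB14, DNAJC8 and DNAJC15, and DNAJB14, DNAJC2, DNAJC8, DNAJC14, DNAJC15 and DNAJC19. The share of calls kept among all genes was not computed. The spike-ins themselves read higher in BI. Spike-in centring left 1 member higher and 27 lower against medium, and 1 and 26 against insulin. Of all 12239 tested genes it left 197 higher and 9347 lower against medium, and 124 and 9482 against insulin.

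Against medium it turned the sign of DNAJA2 (-0.064), DNAJA4 (-0.10), DNAJB1 (-0.10), DNAJB4 (-0.24), DNAJB6 (-0.22), DNAJB8 (-0.34), DNAJC2 (-0.29), DNAJC5 (-0.38), DNAJC6 (-0.37), DNAJC8 (-0.31), DNAJC14 (-0.051), DNAJC21 (-0.44) and DNAJC24 (-0.36). Against insulin it did so for DNAJA2 (-0.10), DNAJA4 (-0.012), DNAJB1 (-0.038), DNAJB4 (-0.021), DNAJB6 (-0.14), DNAJB8 (-0.34), DNAJB13 (-0.32), DNAJC2 (-0.31), DNAJC5 (-0.41), DNAJC6 (-0.34), DNAJC8 (-0.30), DNAJC11 (-0.10), DNAJC14 (-0.18), DNAJC21 (-0.38) and DNAJC24 (-0.32). DNAJB14 was at 0.018 against medium with the probe set of largest variance and without cross-hybridizing probe sets, and DNAJC15 at 0.020 against insulin with the former.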

Other observations

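Some probe sets shared by a member and another gene were kept out of the fit. The probe set shared by DNAJB14 and LOC646358 read 6.79 ± 0.15 (SD, n = 3) in medium, 6.84 ± 0.06 in insulin and 6.54 ± 0.01 in BI. That of GNG10 and the read-through gene DNAJC25-GNG10 read 11.91 ± 0.04, 11.94 ± 0.03 and 11.95 ± 0.02. The probe sets of DNAJB3 with LOC100286922 (3.16, 3.19 and 3.24) and of DNAJC18 with ECSCR (3.26, 3.23 and 3.17) were below the brightness filter.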
